A study of Mus musculus with 16 samples.

Results

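The genes described here are 9 genes of the major histocompatibility complex (MHC) class II pathway of the mouse, measured in hypothalamus of 8 KO chimera and 8 control mice. The members were all probes whose gene name in the scanner files was H2-Aa, H2-Ab1, H2-Eb1, H2-DMa, H2-DMb1, Cd74, Ciita, H2-Oa or H2-Ob. They came to 13 of the 55681 probes on the array. Of these, 9 probes for 8 genes passed the filter on dim probes, a spot well above background in at least 8 animals, and were tested among 35140 probes. The only probe of H2-Oa, 2 of the 3 probes of H2-Ob and 1 of the 2 probes of H2-DMb1 were too dim for that.

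Total RNA of the hypothalamus, a brain region that controls hormone release, feeding and body temperature, was hybridised to 1-colour Agilent arrays with 1 animal per array. KO chimeras were made from C57BL/6J mice by 950 Rad of irradiation followed by marrow of double adrenergic receptor knockout mice. The marrow went in by a single injection behind the eye, the labels add a knockout to C57BL/6J ratio of 1:4 whose meaning they do not settle, and tissue was collected 2 to 3 months later. Donor-derived cells in such animals are blood cells and the cells that arise from them, while neurons and most glia remain those of the host. Which cells of the tissue came from the donor was not measured. The labels list the same treatment text and the same irradiated C57BL/6J strain for all 16 mice, and give a donor strain only for the KO chimeras. Whether the control mice were irradiated or given marrow was therefore not settled. All 15 marker genes of the hypothalamus were detected, among them Oxt, Pmch and Hcrt, which encode oxytocin, melanin-concentrating hormone and orexin.

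MHC class II molecules are pairs of an alpha and a beta chain that show peptides from taken-up proteins to CD4+ T cells. They are made by dendritic cells, B cells and macrophages. In healthy brain they are sparse in microglia and more frequent in macrophages of the meninges, choroid plexus and perivascular space. H2-Aa and H2-Ab1 encode the chains of I-A, and H2-Eb1 encodes the beta chain of I-E, whose alpha chain gene is disrupted in C57BL/6 mice. Cd74, the invariant chain, fills the peptide groove until the molecule reaches the endosome. H2-DM, encoded by H2-DMa and H2-DMb1, then exchanges the remaining invariant chain fragment for peptide, and H2-DO, encoded by H2-Oa and H2-Ob, holds H2-DM back. Ciita is the coactivator that switches the whole set on, acting through factors bound to the X and Y boxes of class II promoters.

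The promoter stretches below show where cores of the X and Y boxes stood in the members. They are RefSeq sequences of build GRCm38.p6, from 150 bases before the transcription start to the base before it, 5′ to 3′ on the strand of the gene. Capitals mark the Y box core GATTGG, the X1 box core AACNGAT and the X2 box core TGACG on either strand. The RefSeq table held 6 of the 9 members, and H2-Ab1, Cd74 and Ciita were not among them.
H2-Aa, chr17:34287824-34287973, minus strand: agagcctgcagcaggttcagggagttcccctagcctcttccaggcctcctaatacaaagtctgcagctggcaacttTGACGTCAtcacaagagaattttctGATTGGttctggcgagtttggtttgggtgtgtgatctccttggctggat
H2-Eb1, chr17:34305717-34305866, plus strand: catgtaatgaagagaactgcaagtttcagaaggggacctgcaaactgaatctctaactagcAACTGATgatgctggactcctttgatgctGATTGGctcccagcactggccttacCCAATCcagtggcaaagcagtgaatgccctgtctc
H2-DMb1, chr17:34153041-34153190, plus strand: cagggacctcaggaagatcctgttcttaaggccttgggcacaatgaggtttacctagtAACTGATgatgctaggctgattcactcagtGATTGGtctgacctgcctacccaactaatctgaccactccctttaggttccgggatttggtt
H2-Oa, chr17:34092229-34092378, plus strand: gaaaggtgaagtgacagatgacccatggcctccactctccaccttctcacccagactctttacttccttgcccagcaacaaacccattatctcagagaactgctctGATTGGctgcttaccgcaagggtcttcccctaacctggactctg
H2-Ob, chr17:34238755-34238904, plus strand: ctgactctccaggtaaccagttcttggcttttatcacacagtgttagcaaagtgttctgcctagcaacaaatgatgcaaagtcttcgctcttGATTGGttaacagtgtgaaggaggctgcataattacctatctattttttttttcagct

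The Y box core began 49 bases before the start in H2-Aa, 60 in H2-Eb1, 62 in H2-DMb1, 44 in H2-Oa and 58 in H2-Ob. Of 32851 RefSeq promoter windows of 300 bases, 16.1% held this core on either strand. The X1 core, held by 6.94% of windows, was found 89 bases before the start of H2-Eb1 and 92 before that of H2-DMb1. H2-Aa carried the X2 core, held by 20.8% of windows, on both strands at overlapping positions (the capitals TGACGTCA). H2-Eb1 also held the Y core on the other strand (CCAATC). H2-DMa has 2 windows in the table, and the Y core stood 199 bases before the start in the second of them and nowhere in the first. An X1 core followed on the same strand by a Y core with first bases 29 or 30 apart, a spacing chosen after the sequences were seen, occurred in 6 windows. Of these, 4 belonged to class II genes, H2-Eb1, H2-DMb1, H2-Eb2 and H2-DMb2, and the others to BC051142 and 4930511E03Rik. A match is a description of letters and not a binding site. H2-Eb1 and H2-DMb1 both held the X1 and Y pair, and their Pearson's r with Cd74, described below, was 0.923 and 0.0995. Whether the cores go with co-variation between animals was not tested.

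Values below are log2 processed intensity minus the 75th percentile of the array, written as log2 relative signal, and each difference is KO chimera minus control. Probe positions are those in the files, in build mm9, and the levels of different probes cannot be set against each other. Between 27276 and 43248 of 59305 spots per array were well above background, with the fewest for KO chimera replicate 1 and the most for control replicate 8. The arrays were spread over 6 slides and 2 scan days, each day with 4 KO chimeras and 4 control mice. Adrb1, an adrenergic receptor gene deleted in the donor marrow, differed by −0.75 ± 0.14 (SE) on its brighter probe (limma, adjusted p = 0.0185) and by −0.01 on the other (adjusted p = 0.966).

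The first question was whether class II transcripts stood at another level in hypothalamus of KO chimeras. The classical chains, the invariant chain and Ciita had means 0.46 to 0.67 higher in KO chimeras, the H2-DM genes and H2-Ob lay within 0.13 of the control mean, and no difference passed the test. Of the 9 probes tested, 0 were called at an adjusted p under 0.05 (limma, a linear model whose spread is moderated over all probes, with Benjamini-Hochberg adjustment over all 35140), where 2.58% of all probes were called, 0.794% as higher and 1.79% as lower. At an unadjusted p under 0.05, 2 of the 9 probes, both for H2-Ab1, were higher in KO chimeras, against 9.70% of all probes that were higher at that level. Of the 9 probes, 8 had a positive difference, against 53.9% of all probes, whose median difference was 0.02. The 8 include both H2-Ab1 probes, which overlap, and those of H2-DMa and H2-Ob, whose sign turned under other settings. The H2-Aa, H2-Ab1, H2-Eb1 and Cd74 probes also moved together over the animals (r of 0.845 to 0.974 between different genes). The 9 probes are therefore not independent counts. The sizes depended on the processing and on single animals. With normexp background correction the difference was 0.19 for H2-Aa and 0.13 for Ciita, and Ciita was at 0.19 with quantile normalization and 0.18 in the deposited table. Without control replicate 2 it was 0.23 for Cd74 and 0.41 for H2-Aa, and without control replicate 5 it was 0.24 for Ciita. In whole tissue, fewer cells of a type and less RNA per cell cannot be told apart.

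H2-Ab1, the beta chain of I-A, has 2 probes that both lie on chromosome 17, at chr17:34406296-34406355 and chr17:34406305-34406363. They share a run of 41 of their 60 bases and so do not measure the gene independently. On the first, KO chimeras lay at −0.12, 0.35 and 1.06 (lowest, median and highest log2 relative signal), against −1.55, −0.36 and 0.99 in control mice. All 8 KO chimeras stood above the control median and 5 of 8 control mice stood below every KO chimera, yet controls 4 and 8 reached into the upper part of the KO chimera range. The means were 0.37 ± 0.35 in KO chimeras and −0.24 ± 0.77 in control mice (SD, n = 8 each), a difference of 0.61 ± 0.28 (SE) with a 95% interval of 0.02 to 1.20. That is 1.53-fold, with an interval of 1.01 to 2.30, and limma gave an adjusted p of 0.233. An exact two-sided permutation test over the 12870 possible splits of the animals gave p = 0.0591 with no adjustment.

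On the second H2-Ab1 probe KO chimeras lay at −0.36, 0.16 and 0.84 (lowest, median and highest), against −1.67, −0.59 and 0.67 in control mice. The groups overlapped in the same animals as on the first probe. The difference was 0.62 ± 0.27 (SE; 95% interval 0.05 to 1.19), with an adjusted p of 0.208 in limma and an exact permutation p of 0.0483 with no adjustment.

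H2-Eb1, the beta chain of I-E, was measured at chr17:34453075-34453134. KO chimeras lay at −0.01, 0.39 and 1.22 (lowest, median and highest), against −1.36, −0.14 and 1.00 in control mice. Again all 8 KO chimeras were above the control median, 4 control mice were below every KO chimera, and KO chimera replicate 4 was the only animal of its group above all control mice. The means were 0.47 ± 0.39 in KO chimeras and −0.10 ± 0.80 in control mice (SD, n = 8 each), a difference of 0.57 ± 0.29 (SE; 95% interval −0.05 to 1.18; adjusted p = 0.287 in limma).

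H2-Aa, the alpha chain of I-A, was measured at chr17:34421285-34421344. KO chimeras lay at −4.00, −3.44 and −2.79 (lowest, median and highest), against −5.85, −4.07 and −2.44 in control mice. This probe was dim: it was well above background on 7 KO chimera and 6 control arrays, and the 2 lowest control mice, replicates 1 and 2, were not among those. All 8 KO chimeras stood above the control median, while the highest animal of the experiment was control replicate 8. The difference was 0.67 ± 0.40 (SE; 95% interval −0.18 to 1.52; adjusted p = 0.365 in limma).

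Cd74, the invariant chain that travels with every class II molecule, was measured at chr18:60972075-60972132. KO chimeras lay at −1.59, −0.76 and −0.28 (lowest, median and highest), against −3.00, −1.38 and −0.43 in control mice. Control replicate 2 was far below all others, KO chimera replicate 4 was the highest, and 6 of 8 KO chimeras were above the control median. The means were −0.91 ± 0.47 in KO chimeras and −1.37 ± 0.86 in control mice (SD, n = 8 each), a difference of 0.46 ± 0.32 (SE; 95% interval −0.21 to 1.13; adjusted p = 0.440 in limma).

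**Figure D1:**
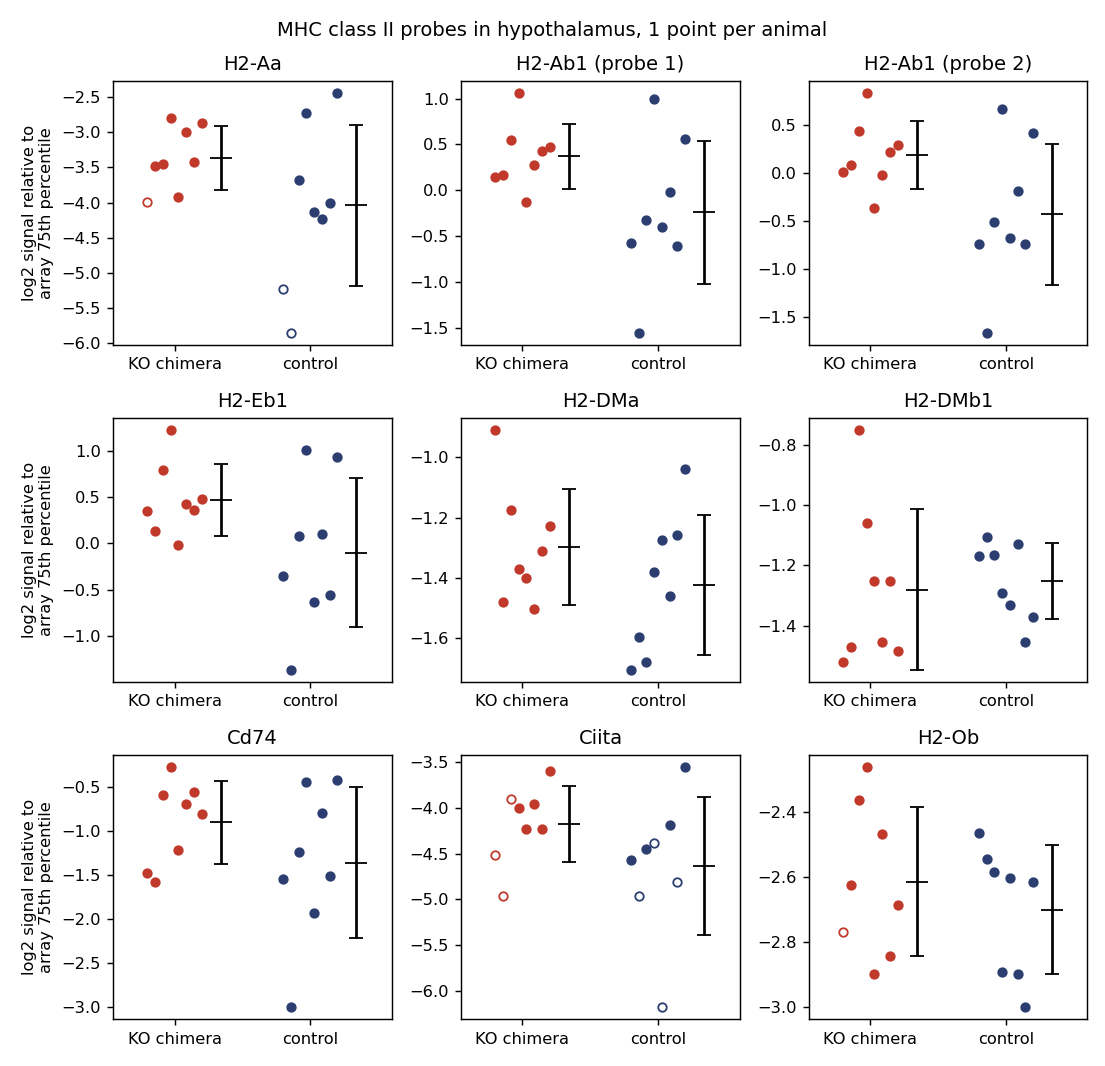
Log2 relative signal (vertical axis) of the 9 tested MHC class II probes in KO chimera (left, red) and control (right, blue) mice. Each point is 1 animal, open where the spot was not well above background, and the bar beside the points is the mean with its SD (n = 8 each). The points of both groups overlap on every probe, and the control points spread over 2.34 to 3.42 units for H2-Aa, H2-Ab1, H2-Eb1 and Cd74, where the KO chimera points spread over 1.18 to 1.30 units.

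The genes that act after assembly showed small differences. H2-DMa, the alpha chain of the peptide exchanger, lay at −1.50, −1.34 and −0.91 in KO chimeras (lowest, median and highest), against −1.70, −1.42 and −1.04 in control mice. Its difference was 0.13 ± 0.11 (SE; adjusted p = 0.529 in limma), with KO chimera replicate 1 as the highest animal of both groups. H2-DMb1, the beta chain, lay at −1.52, −1.35 and −0.75 in KO chimeras and at −1.45, −1.23 and −1.11 in control mice. The difference was −0.03 ± 0.10 (SE; 95% interval −0.25 to 0.19; adjusted p = 0.903 in limma), and the KO chimera range enclosed the whole control range. The other H2-DMb1 probe was well above background on 0 of 16 arrays.

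H2-Ob, the beta chain of H2-DO, lay at −2.90, −2.65 and −2.26 in KO chimeras and at −3.00, −2.61 and −2.47 in control mice on its 1 tested probe. The difference was 0.09 ± 0.11 (SE; 95% interval −0.14 to 0.31; adjusted p = 0.685 in limma), its sign turned under 5 of the alternative settings, and the groups overlapped through most of their range. The other H2-Ob probes were well above background on 2 KO chimera arrays and 1 control array and on 0 arrays.

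H2-Oa, the alpha chain of H2-DO, was well above background on 4 KO chimera arrays and 1 control array and was not part of the main test. It lay at −5.51, −4.61 and −4.42 in KO chimeras (lowest, median and highest), against −6.83, −5.88 and −4.39 in control mice. All 8 KO chimeras stood above the control median, 5 control mice stood below every KO chimera, and control replicate 2, the lowest animal for the classical chains, was here the highest of all. The mean difference was 0.97, and an exact two-sided permutation test over animals gave p = 0.00979 with no adjustment. With no filter on dim probes, limma gave 0.97 ± 0.29 (SE) and an adjusted p of 0.108 over 55678 probes. Most of these values were measured on spots not well above background.

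Ciita, the class II transactivator, was measured at chr16:10526568-10526627 and was well above background on 5 KO chimera and 4 control arrays. KO chimeras lay at −4.97, −4.11 and −3.60 (lowest, median and highest), against −6.18, −4.51 and −3.56 in control mice. Control replicate 5 was the lowest and control replicate 8 the highest animal. The difference was 0.46 ± 0.28 (SE; 95% interval −0.13 to 1.06; adjusted p = 0.376 in limma).

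**Figure D2:**
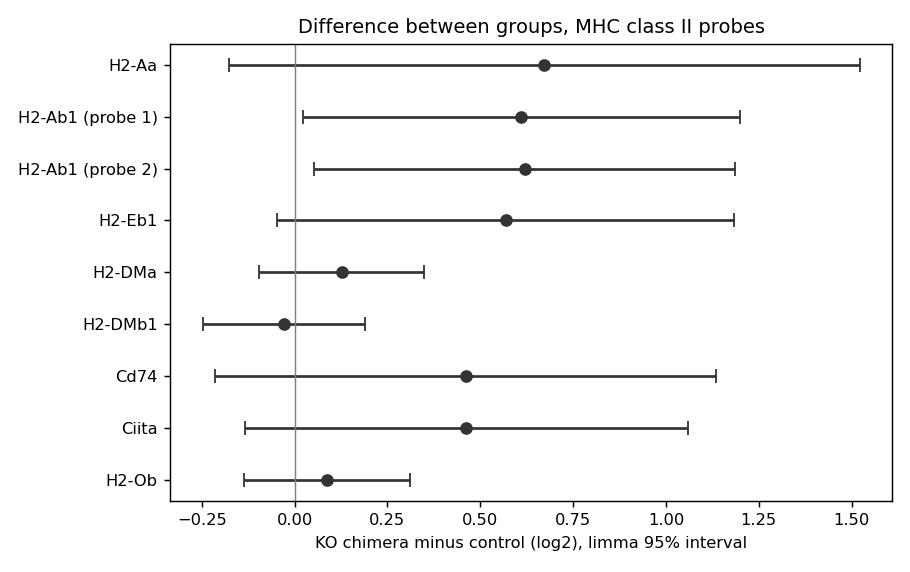
Difference between KO chimera and control means (horizontal axis, log2) for the 9 tested MHC class II probes, with the 95% interval from limma (bars, 8 animals a group). The interval lies above 0 only for the 2 overlapping H2-Ab1 probes, at 0.02 to 1.20 and 0.05 to 1.19, and neither passed after adjustment over all probes.

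The differences were not equal on the slides and days. On the first scan day the difference was 0.40 for the first H2-Ab1 probe, 0.35 for H2-Eb1, 0.35 for H2-Aa and 0.34 for Cd74, and on the second it was 0.82, 0.79, 1.00 and 0.58 for the same probes. On slide 4 a single KO chimera, replicate 1, stood beside a single control mouse, replicate 8, and there the difference was −0.42 for that H2-Ab1 probe, −0.58 for H2-Eb1, −1.56 for H2-Aa and −1.05 for Cd74. On slide 1, with 2 KO chimeras and 1 control mouse, it was 0.99, 0.96, 2.00 and 0.90 for the same probes. On slide 3, with 1 KO chimera and 3 control mice, it was 0.19, 0.11, 0.05 and −0.03. On slide 5, with 1 animal of each group, it was 0.83, 0.99, 0.71 and 1.38, and on slide 6, with 2 of each, 0.60, 0.49, 1.116 and 0.52. Slide 4 thus had the opposite sign to the difference over all animals, slide 3 was near 0, and slides 1, 5 and 6 had the same sign. On slide 4 the KO chimera array had the fewest spots well above background of all arrays and the control array the most. With the share of spots above background as a covariate, the difference over all animals was 0.64 for that H2-Ab1 probe and 0.61 for H2-Eb1. For H2-Aa it was 0.77 and for Cd74 0.54, and none was called. Whether array quality has a part in the differences between slides was not tested.

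The second question was how far animals of a group differed from each other. For the classical chains, Cd74 and Ciita the KO chimeras lay closer together than the control mice. The SD of KO chimeras was 0.398 times that of control mice for H2-Aa, 0.455 and 0.483 times for the H2-Ab1 probes, 0.482 times for H2-Eb1, 0.549 times for Cd74 and 0.556 times for Ciita. Over all 35140 probes, 1.59% had a lower SD ratio than H2-Aa, 3.12% and 4.11% a lower one than the H2-Ab1 probes, 4.08% than H2-Eb1, 6.84% than Cd74 and 7.14% than Ciita. H2-DMa had a ratio of 0.837, H2-Ob of 1.16 and H2-DMb1 of 2.09, the last exceeding 91.5% of all probes.

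A limma fit to the absolute deviation of each animal from its group mean called 0 of the 9 probes, as it called 0.00% of all probes. At an unadjusted p under 0.05 the KO chimera spread was smaller for 1 of the 9, H2-Eb1, where 2.75% of all probes were smaller at that level. The adjusted p of the 9 probes ran from 0.746 to 0.949 in limma. A miss in this fit does not show that the spreads were alike. The wide control range came from both ends: control replicate 2 was the lowest animal on the H2-Aa, H2-Ab1, H2-Eb1 and Cd74 probes, and control replicates 4 and 8 were the highest of their group on the same probes.

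The third question was which members moved together from animal to animal. The classical chains and Cd74 did so closely. With the group as a term and the Cd74 level as the tested coefficient, limma called 3 of the other 8 tested class II probes, the H2-Eb1 probe and both H2-Ab1 probes. They were the only probes called among 35139, where 0.00854% were called. At an unadjusted p under 0.05 a positive coefficient was found for 5 of the 8, H2-Aa and Ciita in addition, against 3.32% of all probes.

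By the correlation of deviations from the group means, H2-Eb1 stood highest with Cd74 among the 35139 probes, at 0.917. Without removal of the group means, over 16 animals Pearson's r was 0.923 (permutation p = 1e-05, the smallest that 100000 permutations can give) and Spearman's rho was 0.885 (permutation p = 3e-05). Each log2 unit of Cd74 went with 0.83 ± 0.10 (SE) units of H2-Eb1 (adjusted p = 0.00912 in limma). Without control replicates 2 and 5, the animals farthest from the Cd74 median, r was 0.842. Within slides, after the mean of each slide was taken out, r was 0.967, and it was 0.95 on each scan day.

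The H2-Ab1 probes came next in rank. Their r with Cd74 was 0.910 and 0.901 (permutation p = 2e-05 for each), with rho of 0.871 and 0.826 (permutation p = 3e-05 and 0.00011). The slopes were 0.79 ± 0.10 and 0.75 ± 0.10 (SE), with adjusted p of 0.0107 and 0.0135 in limma. Without the 2 farthest animals r was 0.831 and 0.798, and within slides it was 0.958 and 0.951.

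H2-Aa ranked 8 of 35139 by the correlation of deviations from the group means. Its r was 0.845 (permutation p = 6e-05) and its rho 0.815 (permutation p = 0.00016), with 0.732 without the 2 farthest animals. The slope of 1.04 ± 0.18 (SE) had an adjusted p of 0.169 in limma, so it did not pass, on a probe that was dim in 3 animals. After normexp background correction this slope was 0.28 ± 0.17 (SE) and did not pass either. Ciita ranked 151, with r of 0.716 (permutation p = 0.00414), rho of 0.829 (permutation p = 0.00017), 0.758 without the 2 farthest animals and an adjusted p of 0.7004 in limma for its slope of 0.60 ± 0.17 (SE).

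H2-DMa, H2-DMb1 and H2-Ob showed no such relation. Their r with Cd74 was 0.297 (permutation p = 0.264), 0.0995 (permutation p = 0.704) and 0.0377 (permutation p = 0.892), and their rho 0.335, 0.185 and 0.0529 (permutation p = 0.205, 0.490 and 0.848). In KO chimeras alone the r with Cd74 was −0.186 for H2-DMa, 0.588 for H2-DMb1 and 0.563 for H2-Ob, against 0.410, −0.326 and −0.422 in control mice. With 8 animals a group, whether these differ between the groups was not tested.

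**Figure D3:**
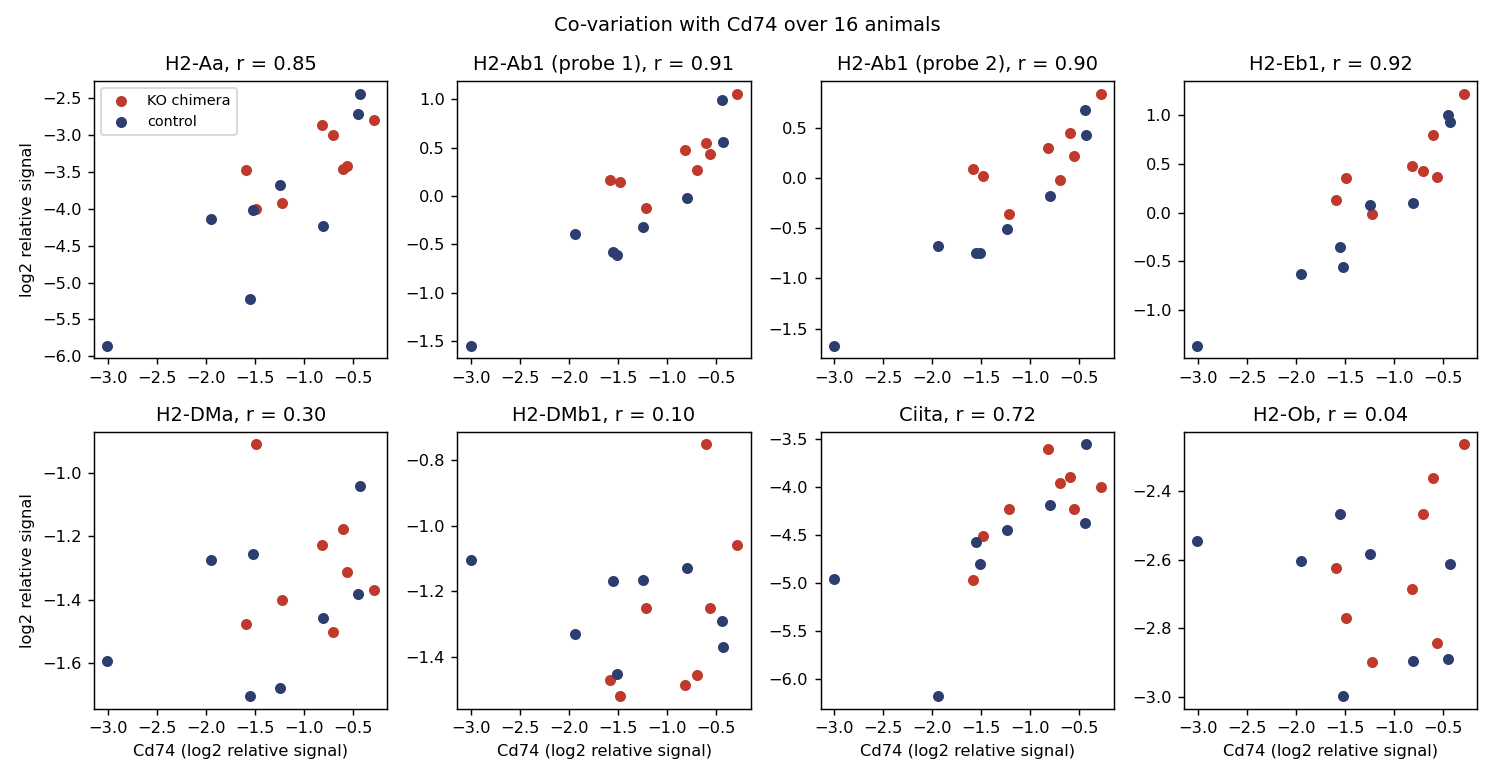
Log2 relative signal of each other tested MHC class II probe (vertical axes) against that of Cd74 (horizontal axes), 1 point per animal, KO chimera in red and control in blue, with Pearson's r over 16 animals in each title. H2-Eb1 (0.92), the H2-Ab1 probes (0.91 and 0.90) and H2-Aa (0.85) rise along a line in both groups, with control replicate 2 at the lower left at a Cd74 level of −3.00, while H2-DMa, H2-DMb1 and H2-Ob scatter.

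The correlations with Cd74 were positive in each group, with 8 animals each and no test within a group. In KO chimeras the r with Cd74 was 0.764 for H2-Eb1, 0.793 and 0.687 for the H2-Ab1 probes, 0.699 for H2-Aa and 0.742 for Ciita, against 0.959, 0.938 and 0.955, 0.859 and 0.655 in control mice. The calls rested partly on the control mice at the ends of the range. Without control replicate 2, 0 of the 8 probes were called (adjusted p = 0.172 for H2-Eb1 and 0.435 and 0.547 for the H2-Ab1 probes in limma), and without control replicate 8 also 0 (0.0720, 0.0765 and 0.102). Without these animals the slopes of the 3 probes still ran from 0.72 to 0.89. With all animals and the replicate number as a block, 0 of the 8 probes were called as well.

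Cd74 itself had r = 0.404 with the number of spots well above background on the array (permutation p = 0.121; rho = 0.388, permutation p = 0.139) and r = 0.346 with the 75th percentile of intensity (permutation p = 0.193; rho = 0.297, permutation p = 0.263). Without control replicates 2 and 5 these r were 0.357 and 0.0481. With the group means taken out, over 16 animals, they were 0.479 and 0.413. With the share of spots above background as a covariate, the fit still called 3 of the 8 probes.

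**Figure D4:**
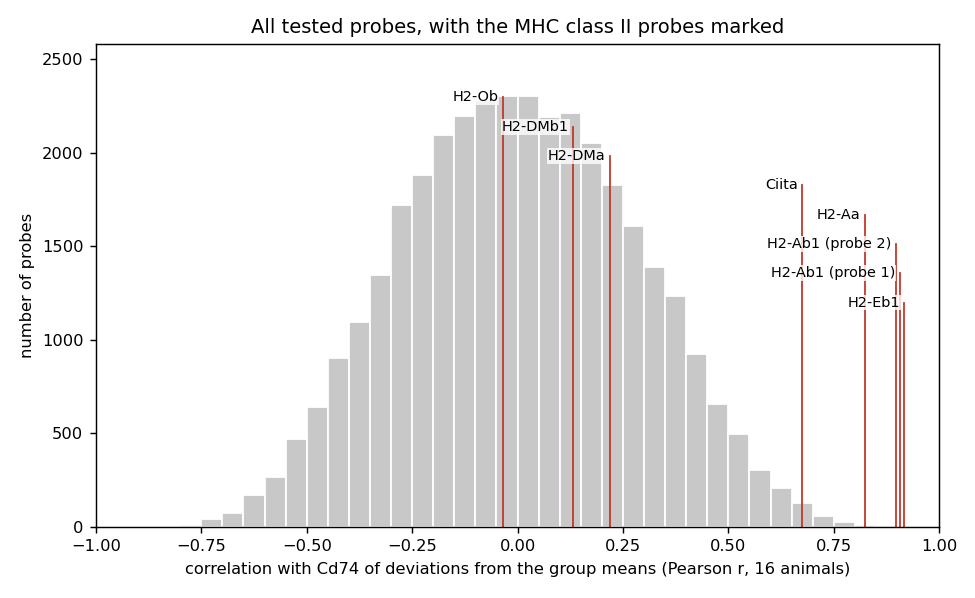
Number of probes (vertical axis) by the correlation with Cd74 of deviations from the group means (horizontal axis, Pearson's r over 16 animals), for 35139 tested probes in grey. Red lines mark the MHC class II probes: H2-Eb1 (0.917), the H2-Ab1 probes (0.906 and 0.898) and H2-Aa (0.824) lie at the right end, Ciita (0.675) in the right tail, and H2-DMa (0.218), H2-DMb1 (0.132) and H2-Ob (−0.0355) in the body of the distribution.

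Set against each other in pairs, the members fell into a tight block and the rest. The 9 pairs among H2-Aa, H2-Ab1, H2-Eb1 and Cd74 probes from different genes had r of 0.845 to 0.974 over 16 animals, and 0.887 to 0.987 within slides. Ciita had r of 0.546 to 0.716 with those 5 probes. The 15 pairs of H2-DMa, H2-DMb1 or H2-Ob with them had r of −0.221 to 0.456. The H2-Ab1 probes had r = 0.995 with each other, which gives the agreement that overlapping probes of 1 gene reach here. These values describe the same 16 arrays, which all pairs share.

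**Figure D5:**
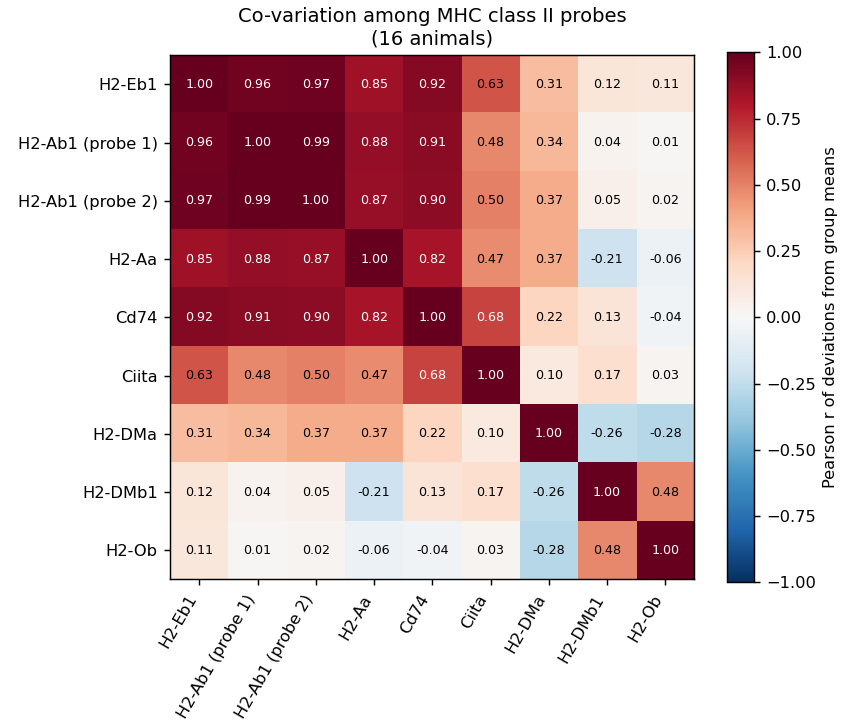
Pearson's r between deviations from the group means over 16 animals for each pair of tested MHC class II probes, from −1 (blue) to 1 (red). The block of H2-Eb1, H2-Ab1, H2-Aa and Cd74 is dark red (0.82 to 0.97 between different genes), Ciita is paler against it (0.47 to 0.68), and H2-DMa, H2-DMb1 and H2-Ob are near white or pale (−0.21 to 0.37).

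Outside the class II genes, the patterns most like Cd74 were looked for among 16872 genes with a symbol, by the correlation of deviations from the group means over 16 animals. The 10 highest were Kansl1l (r = 0.862), Tescl (0.821), Trpc5 (0.814), Ano2 (0.798), Tmem82 (0.789), Ms4a6c (0.788), Zp1 (0.784), Gm5862 (0.781), Septin9 (0.779) and Lilrb4a (0.766). None had a Cd74 coefficient that passed, with adjusted p of 0.169 to 0.676 in limma. Ms4a6c is expressed in myeloid cells and Lilrb4a encodes an inhibitory receptor of such cells. Between the groups both had the opposite sign to Cd74, at −0.55 ± 0.33 and −0.83 ± 0.54 (SE), and neither was called. Without removal of the group means their rho with Cd74 was 0.376 and 0.35. Of the 10 genes, only Kansl1l, Trpc5 and Septin9 were well above background on all 8 KO chimera and all 8 control arrays. Without control replicates 2 and 5 the pooled r of these 10 genes lay between 0.328 and 0.685.

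Among 2 tested relatives of the class II genes 0 were called. H2-Eb2, a further class II beta chain gene, differed by 0.08 ± 0.29 (SE; adjusted p = 0.907 in limma), and Btnl2, a butyrophilin-like gene of the class II region, by 0.28 ± 0.18 (SE; adjusted p = 0.399 in limma). H2-DMb2 and H2-Ea-ps, the disrupted I-E alpha chain gene, were well above background on 0 of 16 arrays.

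Of 15 tested genes of class II transcription control, 1 was called, as lower, where 1.79% of all probes were called as lower. It was Irf2, an interferon regulatory factor, at −1.36, −1.31 and −1.18 in KO chimeras (lowest, median and highest), against −1.29, −1.002 and −0.92 in control mice. The groups overlapped narrowly, and the difference was −0.24 ± 0.06 (SE; adjusted p = 0.0425 in limma). The median difference of these 15 genes was −0.05, and their median correlation with Cd74 within groups was 0.0131. Ifng, the cytokine that induces Ciita, differed by 0.68 ± 0.23 (SE; adjusted p = 0.108 in limma) on a dim probe. Rfxank, a subunit of the X box complex, differed by 0.25 ± 0.10 (SE; adjusted p = 0.177 in limma).

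Of 13 genes of antigen processing and class II traffic 0 were called in the test between groups, and 11 had a negative difference, with a median of −0.08. Ctss, the protease that trims the invariant chain, lay at 2.39, 3.05 and 3.39 in KO chimeras, against 3.07, 3.53 and 3.77 in control mice. Its difference was −0.46 ± 0.14 (SE; adjusted p = 0.0800 in limma), the opposite sign to that of Cd74, and its correlation with Cd74 within groups was 0.0844. Of 6 genes of costimulation 0 were called, and Cd86, a costimulatory ligand, differed by −0.50 ± 0.14 (SE; adjusted p = 0.0639 in limma).

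Markers of cells that can carry class II were mostly not called. Of 6 tested dendritic cell markers 1 was called as lower, against 1.79% of all probes. Of the 6, 3 had a positive difference, the median difference was 0.01, and the median correlation with Cd74 within groups was 0.0479. The called gene was Itgax (CD11c), at −7.43, −5.18 and −4.40 in KO chimeras (lowest, median and highest), against −5.07, −3.69 and −1.72 in control mice (adjusted p = 0.0435 in limma). It was well above background on 1 KO chimera and 7 control arrays, so it passed the filter mainly through control mice, and the size of its difference is not well measured. Naaa differed by 0.20 ± 0.08 (SE; adjusted p = 0.150 in limma) and Batf3, a transcription factor of cross-presenting dendritic cells, by 0.15 (adjusted p = 0.728 in limma). Zbtb46 and Flt3, which mark classical dendritic cells, differed by 0.04 and −0.01, and neither passed. Among 7 tested markers of border and perivascular macrophages 0 were called, the median difference was −0.10, and the median correlation with Cd74 within groups was 0.361. Ms4a7 had the highest of these, 0.659, and Stab1 had 0.557. Ms4a7 lay at −1.16, −0.93 and −0.70 in KO chimeras, against −3.60, −0.34 and 1.07 in control mice, so control mice stood both below and above the whole KO chimera range.

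Of 5 tested B cell markers 0 were called, with a median difference of −0.02. Of 6 tested T cell markers 0 were called, with a median difference of 0.26. Of 5 tested monocyte markers 0 were called, with a median difference of −0.00168. The median correlation with Cd74 within groups was 0.170 for the B cell, −0.0262 for the T cell and −0.322 for the monocyte markers. None of the tested genes of these lists passed for co-variation with Cd74.

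Of 18 microglia markers 1 was called, Trem2, a receptor for lipids, which was lower in KO chimeras at −0.42 ± 0.09 (SE; adjusted p = 0.0280 in limma). Over all probes 1.79% were called as lower. Cx3cr1, the fractalkine receptor, was counted by its brightest probe, at −0.25 ± 0.08 (SE; adjusted p = 0.0932 in limma). Its probes disagreed: the dimmest of 3 was called as higher at 0.61 ± 0.08 (SE; adjusted p = 0.00663 in limma), and the remaining one differed by −0.25 (adjusted p = 0.149 in limma). The median difference of the 18 was −0.21, with 2 of them positive, and the mean of their values centred per gene ran from −0.26 to −0.01 in KO chimeras and from −0.03 to 0.25 in control mice. Their median correlation with Cd74 within groups was −0.130, against 0.653 for Fcrls and 0.626 for Tyrobp, the highest of the list. The microglia list thus had a negative median beside 8 positive differences among the 9 class II probes, which are not independent of each other. Whether these shifts differ was not tested.

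Markers of neighbouring tissue and of other cells were set beside these values, where 1.79% of all probes were called as lower. Of 12 thalamus markers 1 was called, Adarb1, as lower, and the median difference was −0.72, with the mean of their centred values at −1.21 to 0.24 in KO chimeras and −0.93 to 1.35 in control mice. Of 12 oligodendrocyte markers 4 were called, Mal, Mobp, Cldn11 and Mog, all as lower, with a median difference of −0.29. The median correlation of this list with Cd74 within groups was 0.286, against 0.361 for the border and perivascular macrophage list. Of 12 markers of choroid plexus and meninges, where class II positive cells are known to sit, 0 were called. Their median difference was 0.06 and their median correlation with Cd74 within groups was −0.153. The choroid plexus gene Ttr ranged from −1.66 to 5.34 in KO chimeras and from −2.03 to 5.68 in control mice, with a correlation with Cd74 of −0.181. The part of the dissected tissue in the class II differences was not tested.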

How the data were processed

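RNA of the hypothalamus of 16 mice, 8 KO chimera and 8 control, was measured on 1 Agilent array each. The intensity per spot that the authors deposited came from Agilent Feature Extraction, version 10.7, according to the submitters' processing notes. Per the file headers it is linear and has its background subtracted. A deposited table of log2 values served as an alternative. How its arrays were aligned is not known here. Against the scanner's log2 values it had r of at least 0.9996 on each array, so its scale is log2 and its genes were not centred. Its array medians ran from 5.21 to 5.26, and 2.2 was its lowest value. Groups came from the labels, and a KO chimera title spelled with a zero was grouped by its source name.

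Control spots and outlier spots were dropped. The 75th percentile of log2 intensity was subtracted per array and repeated spots were averaged. A probe was tested if at least 8 arrays showed it well above background and each group had at least 4 unmarked values (35140 probes). Names came from RefSeq accessions (28026 probes), current symbols (3418), older symbols (295) or the files (23942). Fits with limma 3.58.1 (lmFit, eBayes; R 4.3.3) covered the group difference, the absolute deviation from the group mean, and the Cd74 coefficient. Each was adjusted over all probes by Benjamini-Hochberg at 0.05. Correlations had 100000 permutations. The fits were tested on simulated data. For list genes the probe with the highest mean was used. Genes named were the members, Adrb1, H2-Ea-ps, the 10 genes most like Cd74, and those of each list past the threshold or up to 3 with the smallest p. Some items are not reported here. Further list genes were chosen after their values were seen. Members, lists and tests were chosen with earlier results of these data known. Alternatives were other normalizations, background correction, filters, blocks, weights, thresholds, the deposited table and each animal left out. The number of arrays limits the precision. Plots were made in matplotlib 3.10.9 under Python 3.11.15.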

Additional observations from a re-analysis of the deposited data

Results flagged for a closer look

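Among 26 sets of 8 animals, 1 for each group and class II probe, 2 had an animal whose gap to the nearest other exceeded the 95% critical share of the whole range for 8 animals, and chance flags about 1 in 20 sets. KO chimera replicate 1 stood at −5.01 on the H2-DMb1 probe that was well above background on 0 arrays, where the next KO chimera was at −6.42. The same animal stood at −1.81 on an H2-Ob probe that was well above background on 2 KO chimera arrays and 1 control array, where the next KO chimera was at −4.81. Its array had the fewest spots well above background, 27276. Neither probe entered the main test. With no filter on dim probes neither was called between the groups (adjusted p = 0.522 and 0.603 in limma).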

How the results depend on the processing

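No class II probe was called between the groups or for spread under any alternative run. The count of probes called for co-variation with Cd74 was 3 as reported and 0 to 3 when each animal was left out in turn, with 0 without control replicate 2 and 0 without control replicate 8. The sign of H2-Ob turned to −0.0177 with quantile normalization, −0.0409 with median scaling, −0.0242 in the deposited table, −0.0448 with slide as a block and −0.0669 within the first scan day, and that of H2-DMa to −0.000653 with median scaling. H2-DMb1 turned to 0.0995 within the second scan day, and its difference ran from −0.104 to 0.00545 with each animal left out. The Cd74 slope was −0.0584 for Ciita and 0.28 for H2-Aa after normexp background correction. The slope of H2-Ob was 0.0113 with no group term and ran from −0.0520 to 0.0595 with each animal left out. Without a group term the slope of H2-Aa passed (slope 1.09, adjusted p = 0.0449 in limma). The cause was not tested for any of these.

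Over all probes, deviations of same-numbered animals had r of −0.07 to 0.23. Only replicates 2, 6 and 8 were above the minimum of 0.1 set for pairing, at 0.23, 0.17 and 0.18. Whether the replicate numbers pair the animals is thus not settled. Pairing in the class II probes alone was not tested. With a replicate block the SE of the group difference was 0.18 for Cd74 (0.32 as reported), 0.18 for H2-Eb1 (0.29) and 0.19 for the first H2-Ab1 probe (0.28). It was 0.114 for H2-DMa (0.105) and 0.112 for H2-Ob (0.106). For Cd74, H2-Eb1 and that H2-Ab1 probe the adjusted p was 0.186, 0.114 and 0.108 in limma. With the replicate block the count for Cd74 was 0, with slopes of 0.87 and 0.90 for the H2-Ab1 probes and 0.90 for H2-Eb1. Over all probes, 908 were called (30.7% higher), 522 (27.8%) with quantile normalization, 551 (25.8%) in the deposited table, 216 (10.6%) with normexp, 4509 (5.34%) with median scaling, which moved the median difference of all probes to −0.11, 459 (52.5%) with no filter and 251 (33.1%) with slide as a block. Dim probes limit H2-Aa, Ciita, H2-Oa and H2-Ob.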
